A study of Mus musculus with 9 samples.

Results

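The peaks described here are the BAP1 binding sites in gene deserts: those whose middle lay in no annotated gene and more than 50 kb from the transcription start site (TSS) of every annotated transcript. They numbered 446 of the 13164 peaks in the list, or 3.39% (95% Wilson interval 3.09 to 3.71). The list came from ChIP-Seq in Ba/F3, an established mouse B cell precursor line that grows in interleukin 3, and combined 2 immunoprecipitations. The first used 52.8 μg of an anti-BAP1 antibody on wild type cells, and the second used 5 μg of an anti-FLAG antibody on Ba/F3 cells stably expressing BAP1 with a triple FLAG tag. Each was sequenced once and the list is pooled, so no difference below has a replicate check, the depth is unknown, and every interval and p-value covers counting over peaks only. Input DNA (4 samples) and H2AK119ub in wild type cells and the BAP1 knockout clones KO3 and KO4 (3 samples) were not analysed here.

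BAP1 is a deubiquitinase that removes ubiquitin from histone H2A, and it acts in a complex with ASXL proteins, HCF1 and OGT. This H2AK119ub mark is placed mainly by RING1B, a subunit of a Polycomb repressive complex. Gene deserts are long stretches without genes, some of which hold distant enhancers, and much of their DNA derives from mobile elements and simple repeats. A short read from a sequence with many copies cannot be placed by its letters alone, so the copy number of a peak's sequence bears on where it is drawn on the map.

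The sequences that carry the results are given first, each 200 bp, on the plus strand of mm9 (NCBIM37). The first set holds the 3 CpG-rich desert peaks with the highest ratio of observed to expected CpG. The peak between Tln2, which encodes a talin, and C2cd4b has capitals at the E-box CACGTG. The other 2 belong to a repeated sequence called family B below, and their capitals mark the word of 25 bases that most peaks of that family share.

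Peak at chr9:67481781-67481980 (Tln2 to C2cd4b): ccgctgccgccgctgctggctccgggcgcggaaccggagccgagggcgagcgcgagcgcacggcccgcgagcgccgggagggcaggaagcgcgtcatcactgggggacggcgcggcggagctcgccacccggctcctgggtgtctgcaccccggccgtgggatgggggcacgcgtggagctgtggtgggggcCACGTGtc
Peak at chr1:106190039-106190238 (SNORA17 to 7SK): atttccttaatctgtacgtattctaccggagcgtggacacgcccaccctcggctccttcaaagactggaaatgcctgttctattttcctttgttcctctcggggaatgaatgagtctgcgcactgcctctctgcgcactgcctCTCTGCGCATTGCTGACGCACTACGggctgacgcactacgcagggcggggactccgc
Peak at chr7:90420357-90420556 (A530021J07Rik to Gm7957): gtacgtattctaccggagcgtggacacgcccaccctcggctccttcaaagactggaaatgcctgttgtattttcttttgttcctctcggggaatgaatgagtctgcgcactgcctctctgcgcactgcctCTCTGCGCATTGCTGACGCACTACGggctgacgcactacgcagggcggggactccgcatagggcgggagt

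The next set holds the 3 desert peaks that carried the most kinds of transcription factor motif, 4 each, with the motifs in capitals. They lie near Ttc7b, near E2f8 (an atypical E2F repressor) and between Maml3 and Foxo1 (a forkhead factor required in B cell development). The fourth peak with as many kinds, from the desert beside Irf2bp2, was added after its values were seen.

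Peak at chr12:101515190-101515389 (Gm17302 to Ttc7b): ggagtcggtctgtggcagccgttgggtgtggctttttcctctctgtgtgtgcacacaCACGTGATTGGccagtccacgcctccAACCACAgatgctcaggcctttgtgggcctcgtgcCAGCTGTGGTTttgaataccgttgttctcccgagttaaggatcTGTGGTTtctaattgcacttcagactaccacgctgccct
Peak at chr7:56192976-56193175 (E2f8 to Nav2): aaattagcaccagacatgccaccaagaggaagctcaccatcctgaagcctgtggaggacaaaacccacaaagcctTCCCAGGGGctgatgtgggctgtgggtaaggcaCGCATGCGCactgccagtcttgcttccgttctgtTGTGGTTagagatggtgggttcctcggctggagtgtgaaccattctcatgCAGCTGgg
Peak at chr3:52003355-52003554 (Maml3 to Foxo1): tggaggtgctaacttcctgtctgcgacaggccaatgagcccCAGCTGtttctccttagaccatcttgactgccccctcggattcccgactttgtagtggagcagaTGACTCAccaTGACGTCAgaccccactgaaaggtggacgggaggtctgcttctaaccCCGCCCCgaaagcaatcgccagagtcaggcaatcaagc
Peak at chr8:129377114-129377313 (Irf2bp2 to SNORA14): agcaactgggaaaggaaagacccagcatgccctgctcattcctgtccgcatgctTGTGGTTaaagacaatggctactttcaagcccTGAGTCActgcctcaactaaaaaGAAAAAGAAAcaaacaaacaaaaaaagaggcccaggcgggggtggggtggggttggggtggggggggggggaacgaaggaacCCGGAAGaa

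The 3 desert peaks farthest from any TSS follow. The first opens with a tandem tract, in capitals, the second has a RUNX motif in capitals, and the third belongs to family A, with the word shared by that family in capitals.

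Peak at chr14:114643843-114644042 (Gm4487 to U6): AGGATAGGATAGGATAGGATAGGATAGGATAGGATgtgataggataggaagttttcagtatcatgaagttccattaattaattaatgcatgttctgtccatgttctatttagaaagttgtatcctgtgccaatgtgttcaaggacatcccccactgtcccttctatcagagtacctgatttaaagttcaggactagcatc
Peak at chr12:44073839-44074038 (AC154353.1 to SNORA33): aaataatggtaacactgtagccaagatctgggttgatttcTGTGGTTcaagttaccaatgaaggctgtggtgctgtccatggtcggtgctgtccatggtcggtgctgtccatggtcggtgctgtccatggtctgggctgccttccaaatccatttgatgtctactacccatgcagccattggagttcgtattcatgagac
Peak at chr15:21819269-21819468 (U6 to Cdh18): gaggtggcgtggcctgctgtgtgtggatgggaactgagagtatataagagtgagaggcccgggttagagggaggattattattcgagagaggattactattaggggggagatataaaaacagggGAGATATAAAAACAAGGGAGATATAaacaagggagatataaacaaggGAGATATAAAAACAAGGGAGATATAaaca

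The last sequences are the closest pair of desert peaks, at Wnt7b (a Wnt ligand), with the SP/KLF motif of the first and the ETS and E2A E-box motifs of the second in capitals. Then come 1 peak of family A and 1 of family C, each with its shared word in capitals. Both were chosen after the groups were known.

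Peak at chr15:85464831-85465030 (Wnt7b to Mirlet7c-2): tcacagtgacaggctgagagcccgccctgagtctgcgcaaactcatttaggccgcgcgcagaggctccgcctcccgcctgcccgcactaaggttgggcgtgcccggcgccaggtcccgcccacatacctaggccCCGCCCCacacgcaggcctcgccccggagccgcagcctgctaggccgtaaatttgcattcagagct
Peak at chr15:85465030-85465229 (Wnt7b to Mirlet7c-2): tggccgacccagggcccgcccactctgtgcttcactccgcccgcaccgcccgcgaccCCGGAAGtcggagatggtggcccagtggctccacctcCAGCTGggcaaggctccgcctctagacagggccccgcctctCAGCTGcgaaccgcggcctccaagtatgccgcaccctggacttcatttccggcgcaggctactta
Peak at chr6:15506334-15506533 (AC163724.1 to Mdfic): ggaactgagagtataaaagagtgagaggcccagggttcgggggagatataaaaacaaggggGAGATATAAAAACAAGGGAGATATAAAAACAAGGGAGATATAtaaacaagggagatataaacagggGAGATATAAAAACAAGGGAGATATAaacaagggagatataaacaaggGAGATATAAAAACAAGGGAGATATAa
Peak at chr17:22367826-22368025 (Zfp947 to Zfp944): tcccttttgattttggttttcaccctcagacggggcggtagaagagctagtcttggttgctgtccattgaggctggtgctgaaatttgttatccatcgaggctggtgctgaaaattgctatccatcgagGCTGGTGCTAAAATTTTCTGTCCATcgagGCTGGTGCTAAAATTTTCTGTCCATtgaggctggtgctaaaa

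The rule sets the distances, which are therefore only described. The middle of a desert peak lay between 50194 and 735813 bp from the nearest TSS, with a median of 115014.5 bp. Of the 446 peaks, 254 lay beyond 100 kb, 101 beyond 200 kb and 13 beyond 500 kb. The 3 peaks just inside the limit lay at 50194, 50280 and 50355 bp, and the 3 peaks outside genes just short of it lay at 49815, 49737 and 49655 bp. Another 117 peaks were as far from every TSS but lay within a long gene and were left out. The nearest TSS belonged to a protein-coding gene for 211 desert peaks, to a pseudogene for 60, to an annotated snRNA for 52 and to an annotated snoRNA for 48. The median distance to the nearest protein-coding TSS was 164412.5 bp. In the order of the list, 427 of the 446 stood after row 11847 of 13164. The paper ranks its sites in a heat map by distance to the nearest TSS. The rows of the list also ran broadly by that distance, so this place largely follows from the rule and is no measure of strength. The other 19 desert peaks stood earlier, among them the printed peak near Ttc7b (row 9129) and a peak near Zfp947 (row 2070). Whether the authors' annotation has a TSS near these peaks was not tested.

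Deserts made up 28.1% of the sequenced bases (720 Mb) and held 0.62 peaks per Mb (exact Poisson interval 0.563 to 0.68). Intergenic sequence at 1 to 50 kb from a TSS held 1.9 per Mb (1.8 to 2.0), gene bodies away from TSSs held 1.24 per Mb (1.17 to 1.31) and gene-proximal sequence within 1 kb of a TSS held 94.9 per Mb (93.0 to 96.7). The intervals of the 4 classes did not overlap. By chromosome, desert density ran from 0.301 per Mb on chromosome 11 (5 peaks) to 1.34 per Mb on chromosome 19 (17 peaks, interval 0.783 to 2.15). The plot by chromosome shows that most intervals crossed the genome-wide value. Chromosome 19 and chromosome 17 (1.02 per Mb, 0.675 to 1.49) lay above it with their whole interval, and chromosome X (0.304 per Mb, 0.146 to 0.56) lay below it with its whole interval. 

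**Figure D1:**
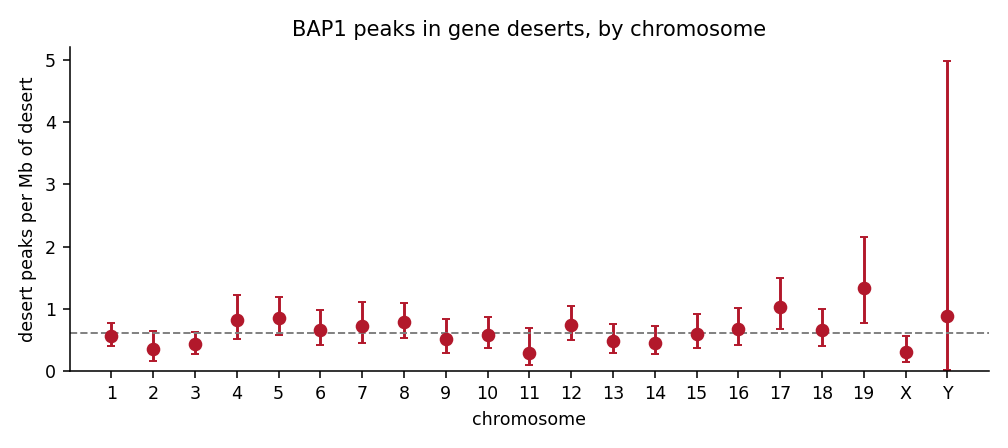
Desert BAP1 peaks per Mb of desert sequence on each chromosome, with exact 95% Poisson intervals. The dashed line is the genome-wide value of 0.62 per Mb, and the interval on chromosome Y is wide because it held 1 peak.

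Most desert peaks held at least 1 word of 50 bases that occurs more than once in the genome. A single repeated word was enough for this, so the rest of such a peak may be unique. Every word of 50 bases, the length of a read, occurred once in the genome for 146 of 446 desert peaks, or 32.7% (28.5 to 37.2). The share was 71.1% of intergenic peaks at 1 to 50 kb, 72.2% of gene body peaks and 96.1% of gene-proximal peaks. The odds ratios were 0.198 (0.158 to 0.249), 0.188 (0.148 to 0.237) and 0.02 (0.016 to 0.0249), and two-sided Fisher's exact tests gave adjusted p = 4.88e-47, 1.7e-47 and 1.43e-266 after Benjamini-Hochberg adjustment over the 3 comparisons. By the most frequent word in the peak, 157 desert peaks held a word with over 100 and up to 1000 copies and 86 held a word with more. The reads were sequenced in pairs, and the count of words takes no account of the second read of a pair. How reads with several matches were treated in the alignment is not given in the sources used here, and its part in the position of these peaks was not tested.

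Grouping the whole list by shared words of 25 bases, and by exact tandem tracts of at least 30 bases, sorted the desert peaks into 6 groups. These groups were made after the values were seen, so their shares are described without a test. Family A held 108 desert peaks (24.2%, 20.5 to 28.4), family B held 43 (9.64%, 7.24 to 12.7) and family C held 14 (3.14%, 1.88 to 5.2). Tandem tracts accounted for 126 (28.3%, 24.3 to 32.6), other multi-copy sequence for 31 and single-copy sequence for 124 (27.8%, 23.8 to 32.1). In the intergenic peaks at 1 to 50 kb the single-copy share was 69% and family A made up 6.49%. A peak was single-copy when all its words of 50 bases were unique and it had neither family nor tract, so 22 of the 146 peaks with only unique words fell in other groups. No repeat annotation was used, so the families carry letters in place of names. Peaks of a family share sequence and are not independent, so every interval, limit or test that includes them counts related copies as separate peaks.

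**Figure D2:**
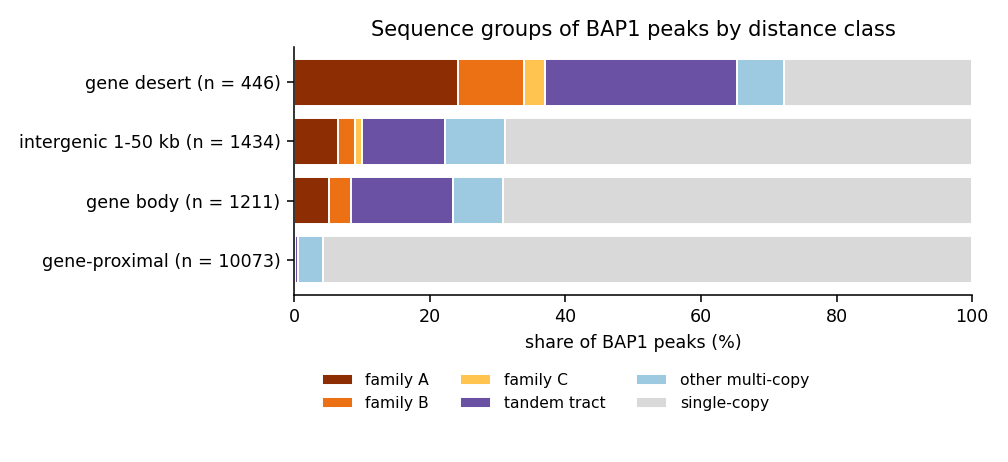
Share of BAP1 peaks (%) in each sequence group, 1 bar per distance class with its number of peaks. Single-copy sequence makes up 27.8% of the desert bar and 95.8% of the gene-proximal bar, while family A and tandem tracts take 24.2% and 28.3% of the desert bar.

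Per Mb, single-copy peaks were sparser in deserts than in the other classes, while family A was denser there than in gene bodies. Other multi-copy peaks stood at 0.0431 per Mb in deserts, 0.165 in intergenic sequence and 0.0922 in gene bodies. A family needed 10 desert peaks, so repeats with many desert peaks left this group and repeats with few stayed. Its lower desert density can thus come from the rule, and nothing is concluded from it about multi-copy sequence as a whole. The same rule favours families with many desert peaks. Single-copy desert peaks stood at 0.172 per Mb (0.143 to 0.205), against 1.31 per Mb (1.23 to 1.39) in intergenic sequence at 1 to 50 kb and 0.858 per Mb (0.801 to 0.918) in gene bodies. Family A stood at 0.15 per Mb (0.123 to 0.181) in deserts, 0.123 (0.0993 to 0.151) in intergenic sequence and 0.0635 (0.0487 to 0.0814) in gene bodies. Peaks with tandem tracts stood at 0.175 (0.146 to 0.208), 0.233 (0.2 to 0.27) and 0.186 (0.16 to 0.216) per Mb. For families B and C the intervals of deserts and intergenic sequence overlapped, and family C had 0 peaks in gene bodies.

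**Figure D3:**
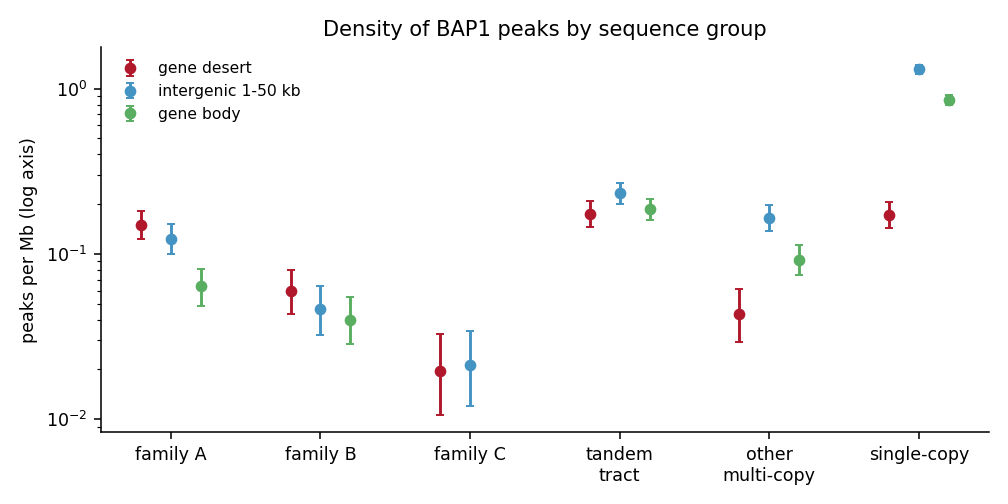
Peaks per Mb (log axis) by sequence group in deserts, in intergenic sequence at 1 to 50 kb and in gene bodies, with exact 95% Poisson intervals; a class with 0 peaks has no point. The desert point for single-copy peaks, at 0.172 per Mb, lies below both others, and the desert point for family A, at 0.15, lies above that for gene bodies.

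Family A held 271 peaks in the whole list, 205 of them with its shared word, which stands more than once in the printed peak beside Mdfic. Of the 271, 108 (39.9%, 34.2 to 45.8) were in deserts on 18 chromosomes. Its desert peaks had a median GC content of 42.3% and a median CpG ratio of 0.562. The shared word had 3081 copies in the genome at 1202 loci (copies within 1000 bp counted as 1 locus), and 448 loci were in deserts. A peak of the family lay within 500 bp of 93 of those 448 desert loci (20.8%, 17.3 to 24.8). The share was 16.7% (13.6 to 20.4) of intergenic loci and 21.9% (17.3 to 27.2) of gene body loci, and all 3 intervals overlapped. Of its 108 desert peaks, 2 held any of the 18 motifs searched below (1.85%, 0.509 to 6.5), 1 with a GATA and 1 with a STAT motif.

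Some of the 108 desert peaks of family A came in pairs or runs. Of 29 neighbouring desert peaks within 10 kb of each other, 18 were pairs of family A, and 14 of these were 2316 to 3037 bp apart, with a median of 2512.5 bp. No other neighbouring pair fell between 2000 and 3500 bp. In the genome, 474 of the 1202 loci were followed by another on the same strand at 2000 to 3500 bp, with a median of 2503 bp, and 2 by one on the opposite strand.

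**Figure D4:**
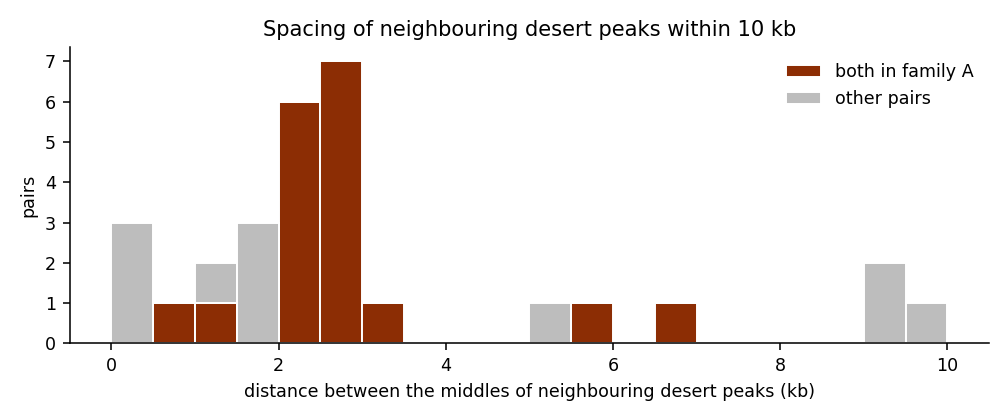
Number of neighbouring pairs of desert peaks by the distance between their middles (kb, bins of 500 bp, pairs within 10 kb). Of the 18 pairs in which both peaks belong to family A, 14 lie between 2316 and 3037 bp, and no pair of other peaks lies in that range.

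Family B supplied 43 of the 61 CpG-rich desert peaks. A peak was CpG-rich when its GC content was at least 50% and its CpG ratio at least 0.6, the usual limits for a CpG island. All 43 family B desert peaks passed, at a median GC content of 59% and a median CpG ratio of 0.78, and none held any of the 18 motifs (0 of 43, with a Wilson upper limit of 8.2%, or 6.98% from the limit of 3 counts that a count of 0 allows). The family had 934 copies of its shared word, almost none near a TSS (4 loci), and a peak lay at 40 of 345 desert loci (11.6%, 8.63 to 15.4), 33 of 359 intergenic loci and 39 of 226 gene body loci (17.3%, 12.9 to 22.7).

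Family C was rarer and more often occupied. Of 26 loci of its shared word, 23 (88.5%, 71 to 96) had a peak, including 10 of 13 in deserts. Its 14 desert peaks lay on 10 chromosomes, among them a peak 64.8 kb from Zfp947 (a zinc finger gene) on chromosome 17 and a peak on chromosome Y 286 kb from Zfy2, its nearest protein-coding gene. The SP/KLF motif occurred in 7 of the 14 (50%, 26.8 to 73.2). All 3 families were defined from the peaks themselves, which raises their occupied shares, so these shares are not tested against one another.

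Tandem tracts in desert peaks had mostly purine-rich units of 5 bases. The unit AAAGG (in any frame, on either strand) made up the longest tract of 84 of the 126 peaks, AAGGG of 18 and AGGAT of 10. The tracts had a median length of 61 bases and reached 144 bases. Across the genome, 14.5% of 808 desert loci with an AAAGG tract had a peak within 500 bp. The share was 4.71% (2.4 to 9.01) for tracts of 30 to 49 bases, 16.1% (13.2 to 19.5) for 50 to 99 bases and 21.6% (15 to 29.9) for 100 bases or more. Loci with an AAGGG tract had peaks at 12.3% (9.96 to 15.2) in deserts, with overlapping intervals at 11.8% (7.5 to 18.1), 11% (8.12 to 14.9) and 16.3% (10.9 to 23.6) over the same 3 lengths. AGGAT tracts were few but often occupied: 15 of 21 desert loci (71.4%, 50 to 86.2) and 34 of 57 in the genome had a peak. Among them is the desert peak farthest from any TSS, 735813 bp from a U6 gene. In deserts, 117 AAAGG, 75 AAGGG and 15 AGGAT loci had a peak. The longest tract was of that unit in only 84, 18 and 10 desert peaks. Any peak within 500 bp of a locus was counted, whether or not it held the tract, and the same peak could be counted for several units. The part of each in this difference was not tested. These shares and their trends with length are not independent. The units were also picked from the peaks themselves, which can raise their occupied shares, so these are not tested against one another.

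Desert peaks were less often CpG-rich than peaks of every other class, although more often than desert sequence as a whole. The share was 13.7% of desert peaks (61 of 446, 10.8 to 17.2), 27.8% of intergenic peaks, 19.3% of gene body peaks and 86.8% of gene-proximal peaks. The odds ratios were 0.412 (0.307 to 0.553), 0.662 (0.487 to 0.898) and 0.0241 (0.0183 to 0.0318), with adjusted p = 4.89e-10, 0.00737 and 3.31e-248 by two-sided Fisher's exact tests. Against gene body peaks the call was lost when 500 bp around the middle were read (odds ratio 0.797, adjusted p = 0.185 by Fisher's exact test). Of 3597403 windows of 200 bp that tile the deserts, 0.42% were CpG-rich, and their median GC content was 39%, against 46% for desert peaks.

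Outside family B, 11 of 124 single-copy desert peaks were CpG-rich (8.87%, 5.03 to 15.2). They included the peak between Tln2 and C2cd4b, with a GC content of 78.5% and a CpG ratio of 0.995. They also included a peak whose nearest gene is St3gal1 (a sialyltransferase), with a GC content of 75.5% and a CpG ratio of 0.866. The St3gal1 peak stood in the opening part of the list, with 1302 gene-proximal peaks and no other desert peak. The list runs broadly by distance to a TSS, and whether the authors' annotation has a TSS near this peak was not tested. The pair at Wnt7b, whose middles lie 199 bp apart, had GC contents of 68% and 69%. Some of these peaks matched promoters of a later annotation. Of the 146 desert peaks with only unique words, 10 (6.85%, 3.76 to 12.1) shared a word with a RefSeq promoter of build GRCm38.p6, from 250 bases before to 50 after a start. The matched genes included Zfp994, a protein-coding zinc finger gene, the long noncoding RNA D130051D11Rik at the Wnt7b pair, 6430573P05Rik and Gm14636, all 4 with CpG-rich peaks. The remaining matches had a CpG ratio under 0.5. The share among intergenic peaks with only unique words was 8.34% (6.8 to 10.2) and among gene-proximal peaks 65.6%.

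Many of 18 motifs, searched on both strands, were less frequent in desert peaks than in the other classes. With Benjamini-Hochberg adjustment over 54 two-sided Fisher's exact tests, 8 motifs were less frequent and 1 more frequent than in intergenic peaks at 1 to 50 kb, 7 less and 1 more than in gene body peaks, and 12 less and 3 more than in gene-proximal peaks. Of the promoter motifs, ETS was read as CCGGAAG and NRF1 as GCGCNTGCG. SP/KLF was GGGGCGG, and YY1 was AAGATGGC. CRE, the site of CREB and ATF factors, was TGACGTCA. NF-Y, the CCAAT box, was read as CCAATCA with its flank. E2F, of cell cycle genes, was GCGGGAAA. The MYC/MAX E-box was CACGTG. The lineage motifs were PU.1 with GAGGAAGT and EBF with CCCNNGGGA. RUNX, of the core binding factors, was read as TGTGGTT. The motif of GATA factors was read as AGATAAG and that of STAT factors, which carry interleukin signals, as TTCCNNGAA. AP-1, the Fos and Jun site, was TGANTCA, and the E2A E-box was CAGCTG in these searches. The motifs of CTCF, IRF and THAP11/ZNF143 were searched with longer patterns. The ETS and PU.1 motifs can overlap, and a match is a match of letters and not a bound site.

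Several promoter motifs were less frequent in desert peaks. SP/KLF, the GC box of many housekeeping promoters, occurred in 18 of 446 desert peaks (4.04%, 2.57 to 6.29), against 19.5% of intergenic, 14.8% of gene body and 46.1% of gene-proximal peaks. The adjusted p were 5.92e-17, 9.87e-10 and 2.65e-85 by Fisher's exact tests, and 0.412% of all desert windows held it. ETS occurred in 2.24% of desert peaks, 7.25% of intergenic and 20.2% of gene-proximal peaks (adjusted p = 0.000143 and 3.17e-28 by Fisher's exact tests), and in 0.392% of desert windows. NRF1, an activator of mitochondrial genes, occurred in 1 desert peak, near E2f8, against 15.7% of gene-proximal peaks (adjusted p = 1.34e-29 by Fisher's exact test). CTCF, the insulator protein, had its motif in 3 desert peaks (0.673%, 0.229 to 1.96), against 3.49% of intergenic peaks (adjusted p = 0.00202 by Fisher's exact test) and 0.585% of desert windows. The CTCF comparison with intergenic peaks lost its call in the central 100 bp (odds ratio 0.244, adjusted p = 0.0982 by Fisher's exact test) and with only unique words (odds ratio 0.301, adjusted p = 0.353 by Fisher's exact test).

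The IRF motif, read by interferon regulatory factors in lymphoid cells, went the other way. It occurred in 33 desert peaks (7.4%, 5.32 to 10.2), against 3.42% of intergenic peaks, 4.13% of gene body peaks and 1.11% of gene-proximal peaks. The odds ratios were 2.26, 1.86 and 7.11, with adjusted p = 0.00196, 0.0197 and 1e-14 by Fisher's exact tests. Of the 33, 20 held a tandem tract and 11 were single-copy. Among peaks with only unique words, 12 of 146 desert peaks (8.22%) held it against 2.16% of intergenic and 2.4% of gene body peaks, with odds ratios of 4.06 (1.96 to 8.39) and 3.64 (1.75 to 7.57) and adjusted p = 0.00271 and 0.00553 by Fisher's exact tests. Several of these 12 peaks still held AAAGG tracts of 16, 18, 24 or 25 bases, short of the tandem limit, or of 33 bases. In others the longest tract was 22 bases of AAAGGG, 15 bases of AGGGG or AAAC, 14 bases of AAAAGG, or 10 bases of another unit. In the central 100 bp the comparison with gene body peaks lost its call (adjusted p = 0.0569 by Fisher's exact test). The motif stood in 3.66% of all desert windows, and the median GC content was 46% in desert peaks against 55% in intergenic and gene body peaks. The part of base composition and of short tracts in this difference was not tested.

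When only peaks with unique words were compared, with 146 desert peaks in place of 446, most of the other differences were no longer called. Of the 32 motif comparisons past the threshold over all peaks, 11 remained so. SP/KLF stayed lower, at 6.16% against 24.5% of intergenic and 19.2% of gene body peaks (adjusted p = 9.87e-07 and 0.000313 by Fisher's exact tests). ETS stood at 5.48% against 9.03% of intergenic peaks (odds ratio 0.584, 0.278 to 1.23, adjusted p = 0.499 by Fisher's exact test). The E2A E-box, bound by E proteins of the B lineage, stood at 11% against 12.2% (odds ratio 0.888, 0.511 to 1.54), where over all peaks it had been lower at 4.04% against 9.9% (adjusted p = 0.000206 by Fisher's exact test). AP-1 stood at 11% and RUNX, the core factor motif of blood cells, at 8.9%, both higher than the 2.44% and 1.71% of gene-proximal peaks (odds ratios 4.92 and 5.63, adjusted p = 9.26e-06 and 1.76e-05 by Fisher's exact tests). For AP-1 the shares were 10.5% of intergenic peaks (odds ratio 1.05, 0.601 to 1.83) and 12.1% of gene body peaks (odds ratio 0.892, 0.511 to 1.56), and neither difference was called (adjusted p = 0.937 and 0.92 by Fisher's exact tests). For RUNX the difference from intergenic peaks (4.61%, odds ratio 2.02, 1.07 to 3.84) was not called (adjusted p = 0.163 by Fisher's exact test), nor was that from gene body peaks (5.49%, odds ratio 1.68, 0.887 to 3.19, adjusted p = 0.374 by Fisher's exact test). When all desert peaks beyond 100 kb were compared with gene-proximal peaks, neither AP-1 (odds ratio 1.15, adjusted p = 0.805 by Fisher's exact test) nor RUNX (odds ratio 2.04, adjusted p = 0.078 by Fisher's exact test) was called. Over all 446 desert peaks, AP-1 stood at 5.16%, lower than the 10.1% of gene body peaks (adjusted p = 0.00269 by Fisher's exact test). It was higher than the 2.4% of gene-proximal peaks (adjusted p = 0.00235 by Fisher's exact test). Of all desert windows, 6.05% held AP-1 and 4.36% held RUNX, which stood in 3.81% of all desert peaks. 

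**Figure D5:**
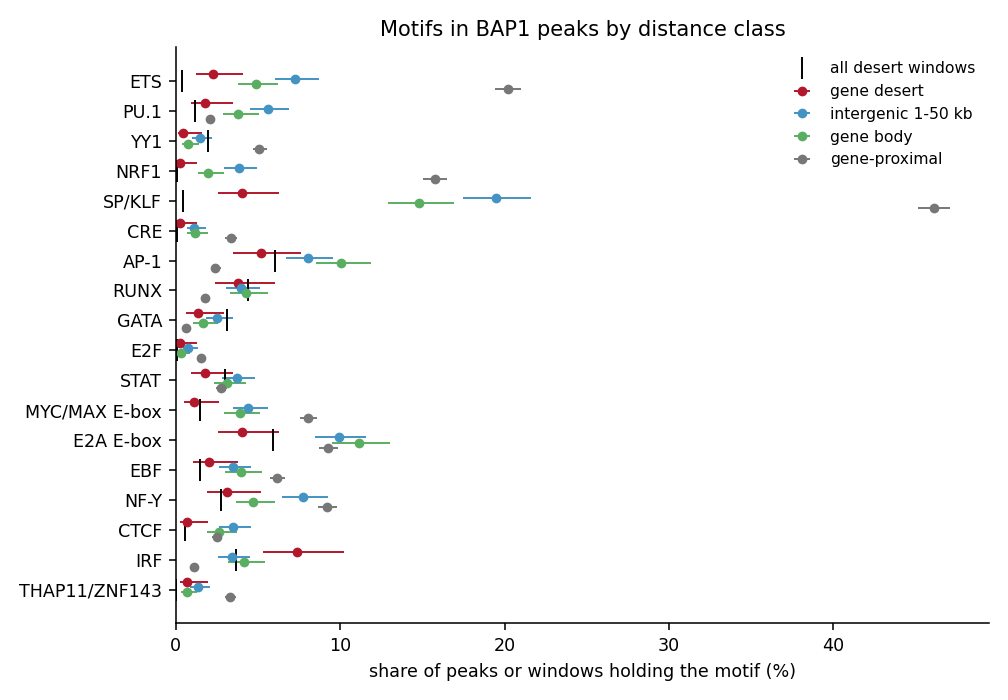
Share of BAP1 peaks (%) that hold each of 18 motifs, by distance class with 95% Wilson intervals, and the share of all 200 bp windows of the deserts (black marks). SP/KLF falls from 46.1% of gene-proximal to 4.04% of desert peaks, while IRF rises from 1.11% to 7.4%.

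Single-copy desert peaks held at least 1 of the motifs in 78 of 124 cases and 3 or more in 6. RUNX occurred in 13 of the 124, AP-1 in 15, the E2A E-box in 16 and ETS in 8, while families A and B had 0 of each of these (0 of 108 and 0 of 43, with Wilson upper limits of 3.43% and 8.2%, or 2.78% and 6.98% from the limit of 3 counts). These limits take the peaks of a family as independent, which copies of a shared sequence are not, so they are too narrow. The peak between Maml3 and Foxo1 joined an AP-1 motif with a CRE, a GC box and an E2A E-box, and it lay 68.8 kb from the Foxo1 TSS.

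Peaks in deserts were more often alone. Another peak beyond 1 kb of a TSS lay within 5 kb of 42 of 446 desert peaks (9.42%, 7.04 to 12.5), against 19.7% of intergenic peaks and 15.2% of gene body peaks. The odds ratios were 0.423 (0.3 to 0.596) and 0.58 (0.407 to 0.827), with adjusted p = 2.83e-07 and 0.00212 by Fisher's exact tests over 2 comparisons. Peaks were also sparser in deserts (0.62 per Mb) than in intergenic sequence (1.9) and gene bodies (1.24). The part of this density in the neighbour shares was not tested. Of 4187 desert segments, 373 held a peak, 319 of them 1 peak, 44 of them 2 and 10 of them 3 or more. Segments with a peak had a median length of 264 kb, and the longest without one spanned 2143 kb.

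The desert with the most peaks lay beside Irf2bp2, which encodes a corepressor that binds interferon regulatory factor 2. This segment of 252 kb on chromosome 8 held 9 peaks within 95157 bp, of which 8 were single-copy and 1 held a tandem tract, or 35.8 peaks per Mb. They stood 165, 211, 213, 214, 223, 239, 257, 259 and 259.9 kb from the Irf2bp2 TSS, and the nearest to the other flank was 92.5 kb from Tomm20, a receptor of the mitochondrial import channel. None of the 9 was CpG-rich, with CpG ratios of 0.08 to 0.45. An E2A E-box stood in the peak at 165 kb, STAT motifs in the peaks at 211 and 213 kb and a RUNX motif in the peak at 239 kb. The peaks at 214 and 223 kb held none of the motifs. An AP-1 motif stood in the peak at 257 kb and an NF-Y motif in the peak at 259 kb. ETS, AP-1, RUNX and IRF motifs stood together in the peak at 259.9 kb. That last peak matched the RefSeq promoter of the long noncoding RNA Gm31718.

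The other dense deserts differed in their sequence. The segment of 216 kb between Foxp2 and Mdfic held 5 peaks within 7078 bp, all of family A. The segment between 1500009L16Rik and Nuak1 (a kinase related to AMPK) held 4 peaks, 1 each of family B, tandem, other multi-copy and single-copy sequence. A segment of 54.2 kb beside Max, the partner of MYC, held 3 peaks, at 70.3, 94.4 and 104 kb from its TSS, 2 with tandem tracts and 1 single-copy. A segment between Vegfc (a lymphatic growth factor) and Spcs3 also held 3, with the same makeup. The remaining 5, flanked by Gm20516, Rpl17-ps3, Tmprss15, Cntnap5b and Tpm3-rs7 on their left among coding genes, held 3 peaks each, of which 1 in all was single-copy.

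A list of 71 genes of blood and B lineage regulators was then set against the flanks, 70 of which were found in the annotation by these symbols. Spi1 was not matched. Among all annotated genes, 4 of the list were the nearest TSS on one side of a desert peak, and each flanked 1 peak. For 3 of the 4, a single-copy peak lay 68.8 kb from Foxo1 and another 269 kb from Klf6 (a zinc finger factor), and a multi-copy peak 407 kb from Mef2c (a MADS box factor of lymphoid cells). Counting protein-coding genes alone, 9 genes flanked 10 peaks. The added genes were Runx3 at 138 kb, Satb1 at 755 kb, Id2 at 960 kb, Lmo4 at 1037 kb and Myc, with a tandem peak at 1215 kb and a single-copy peak at 1671 kb. The share of all annotated genes that flank a desert peak is not given here, so these counts are no result about the list. Nearness in sequence says nothing of which gene a site acts on, and no target was assigned.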

How the data were processed

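The list was deposited by the authors as start and end positions in bp on mouse mm9, with no score, height or p-value, each peak 200 bp wide (unit other: coordinates only). Per the study's methods, paired-end reads were mapped with Bowtie 1.0.0 and peaks called with MACS 1.4 (1.4.2 in the submitters' processing notes) against input DNA. The caller's threshold, the rule that joined both samples and the handling of reads with several matches are not given in the sources used here. The number of unmatched per-sample columns was 0.

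Middles were placed on GENCODE M1 (NCBIM37), 37310 genes of all types. GC content, CpG ratio, motifs on both strands and copies of 50-base words were read from that genome with Python 3.11.15, numpy 2.4.6, numba 0.67.0 and scipy 1.17.1. Shares have 95% Wilson intervals, densities exact Poisson intervals and odds ratios log-odds intervals. Classes were compared by the exact test of Fisher (two-sided), p-values were adjusted per family by Benjamini-Hochberg, and calls needed an adjusted p under 0.05. The counting and test code was checked on simulated data. RefSeq promoters (GRCm38.p6) were matched by shared 50-base words, since the builds differ.

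The members, the motifs and the gene list were chosen with earlier results of these data known. Sequence families and tandem tracts were defined after the values were seen: peaks that share a 25-base word that is not itself periodic were joined with networkx 3.6.1, and a family needed 10 desert peaks. Genes were named where they flank a desert with 3 or more peaks, are nearest to a printed sequence, or belong to the list of blood and B lineage regulators and flank a desert peak, and peaks of other genes were named after their values were seen. Alternatives are given in the closing section. The share of annotated repeats was not computed, because the genome used here marks no repeats. The own values and sequence of 1 desert peak, which stays in all counts, are not reported here.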

Additional observations from a re-analysis of the deposited data

How the results depend on the processing

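The number of desert peaks followed the limit: 836 beyond 20 kb, 254 beyond 100 kb and 681 when only protein-coding genes counted, against 446; it was 446 by the nearest edge and 443 with peaks merged within 500 bp. Fewer CpG-rich peaks than in gene bodies was lost with 500 bp around the middle (odds ratio 0.797, adjusted p = 0.185 by Fisher's exact test), and no other comparison of CpG-rich, unique-sequence or neighbouring peak shares lost its call or direction under its alternatives. Of the motif comparisons past the threshold, 32 in all, 32 kept it with merged peaks, 29 beyond 100 kb, 19 in the central 100 bp and 11 with only unique words, where fewer peaks were tested. The motifs less frequent than in intergenic peaks numbered 8, then 5 in the central 100 bp and 1 with unique words; than in gene body peaks 7, then 3 and 1; than in gene-proximal peaks 12, then 4 with unique words. Those more frequent than in gene body peaks went from 1 to 0 in the central 100 bp, and than in gene-proximal peaks from 3 to 1 beyond 100 kb, where AP-1 and RUNX lost their calls. CTCF lost its calls against all 3 classes in the central 100 bp and with unique words. The E2A E-box against gene-proximal peaks turned to an odds ratio of 1.21 with unique words (adjusted p = 0.819 by Fisher's exact test). Chosen after seeing the data, tracts of 20 bases or more gave 151 desert peaks and of 50 or more 88, against 126, and words of 20 or 32 bases gave family A 108 both times, family B 43 and family C 14 and 13. The planned share of annotated repeats was not run. No paired analysis was possible because the list pools both libraries. Depth is unknown, so a site absent from the list may be undetected.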
